A study of Mus musculus with 10 samples.

Results

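Pigr, Lcn2, Ltf, Wfdc2, Wfdc18, Slpi, Muc1, Muc4, Muc15 and Lbp, 10 genes whose proteins defend the mucosal surface of a gland or form its secretory barrier, were examined in luminal and basal cells sorted from the mouse mammary gland. They were picked by name, and all 10 were found among the 24594 genes of the count table through their Entrez identifiers. Bulk RNA-seq was carried out on 5 luminal and 5 basal libraries of wild type C57BL/6J mice, and every animal was a virgin, which the series design states. The labels name no transgene, treatment agent or age. The study's methods give an age range in weeks for the mice used in experiments, which is that of young adults. Luminal cells line the lumen of the duct and later make milk, and basal (myoepithelial) cells form the contractile outer layer. The sort used the surface proteins EpCAM and CD49f, and the study's methods describe a stain against the blood and endothelial proteins TER-119, CD31 and CD45 to leave other cells out.

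Mucosal defence rests on proteins that epithelial cells secrete or hold at the surface facing the lumen. The polymeric immunoglobulin receptor carries dimeric IgA across the cell into the secretion. Lactoferrin binds iron and lipocalin 2 binds the bacterial siderophores that capture iron, so that both withhold it from microbes. Proteins with a whey acidic protein (WAP) domain inhibit proteases or bacteria, membrane mucins coat the surface with sugar chains, and the lipopolysaccharide binding protein hands a component of the bacterial wall to CD14 and its receptor complex. In the mammary gland several of these proteins are known as components of milk.

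Transcript levels are given as CPM, the usual depth-scaled counts, on the library total scaled by the TMM method of edgeR. Library totals ranged from 13203146 to 17565471 counts in luminal and from 13676558 to 17998165 counts in basal libraries, so that 3 counts in a library correspond to between 0.158 and 0.232 CPM. In all 10 libraries the title gives the other cell type than the remaining labels do. Grouping followed the cell type label, which the source name and the letter in the library description share, and the 9 luminal and 7 basal marker genes followed that label without overlap between the groups. Nothing in the labels says that the libraries came from separate animals, and the number of biological replicates given in the study's methods is below the 5 libraries that each group has here, so p-values measure the spread between these libraries, which may be partly technical. In bulk RNA, a smaller share of expressing cells and less RNA per expressing cell cannot be told apart.

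All 10 members passed the filter on low counts and were tested. By edgeR's quasi-likelihood test with Benjamini-Hochberg adjustment over 14609 genes, 8 were higher in luminal cells (Pigr, Ltf, Wfdc2, Wfdc18, Muc1, Muc4, Muc15 and Lbp), 1 was higher in basal cells (Slpi) and 1 showed no call (Lcn2). Sorted luminal and basal cells differed in much of the transcriptome, with 33.6% of all genes tested called higher in luminal, 31.2% called higher in basal and 64.8% called in either direction. For 9 of the 10 members no luminal value fell within the basal range or the reverse, against 50.1% of all genes tested. The median log2 fold change, luminal minus basal, was 5.08 over the members and 0.05 over all genes tested. Members were named with earlier results of these libraries known, so these counts describe the list and do not set it apart from other genes.

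**Figure D1:**
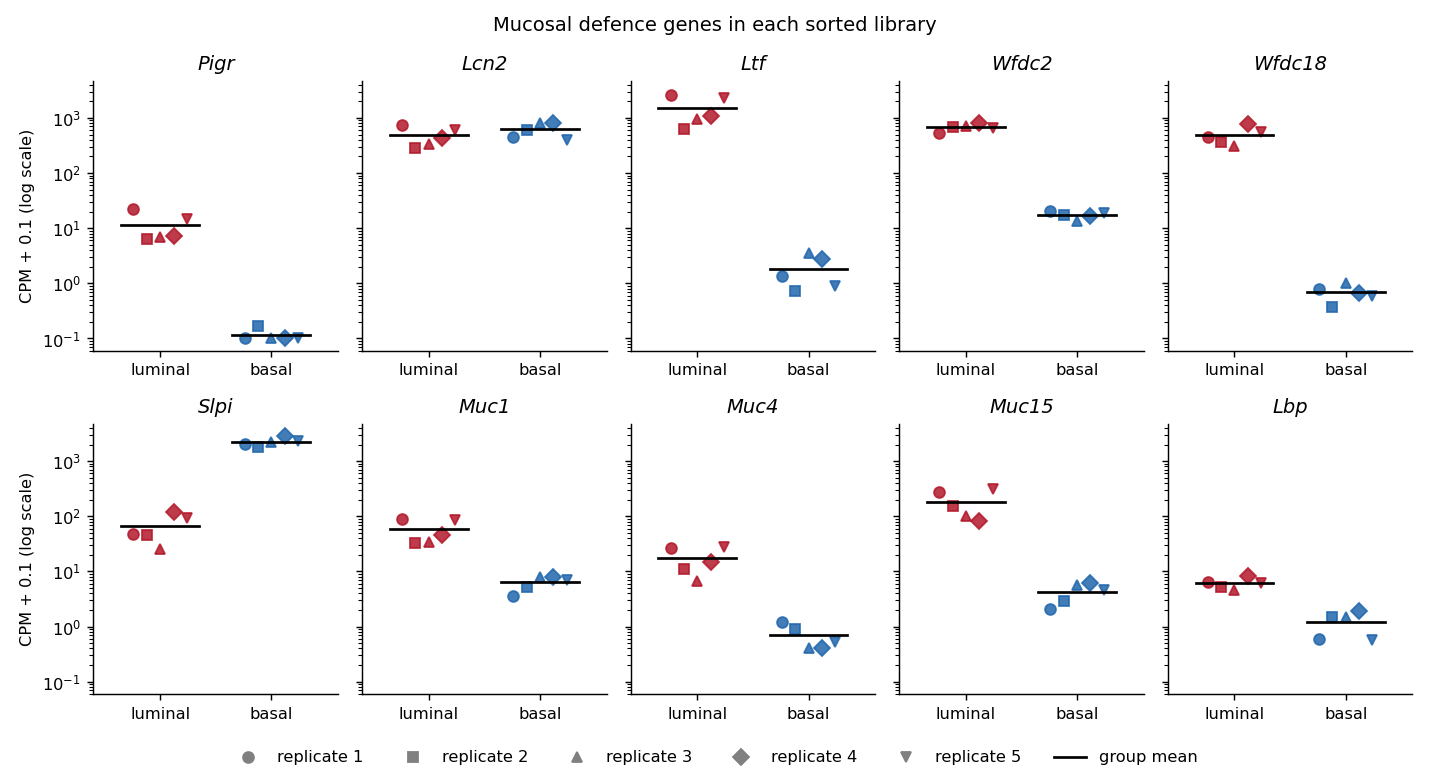
Level of each member in each library, as CPM + 0.1 on a log axis, with 1 panel per gene. Symbols mark the replicate number, red the luminal and blue the basal libraries, and the black line the group mean. Slpi is higher in all 5 basal libraries, Lcn2 overlaps between the groups, and the other 8 genes are higher in all 5 luminal libraries.

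The stretch just before the transcription start of 4 members is shown first, because these genes span the range of the results. Ltf and Wfdc18 had the largest fold changes towards luminal cells with counts in every library, Slpi was the member higher in basal cells, and Lcn2 was high in both. Each sequence holds the 250 bases before the start in the RefSeq promoter table of GRCm38.p6, the assembly behind mm10, read 5′ to 3′ on the strand of the gene. Capitals mark matches on either strand to the motifs listed after the sequences.
Ltf (chr9:111019042-111019291, plus strand): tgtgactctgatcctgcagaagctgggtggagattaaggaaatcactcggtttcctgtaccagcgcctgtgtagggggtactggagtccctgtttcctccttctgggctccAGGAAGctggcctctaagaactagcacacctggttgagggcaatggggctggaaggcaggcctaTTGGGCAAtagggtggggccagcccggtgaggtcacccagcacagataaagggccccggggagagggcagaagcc
Wfdc18 (chr11:83708754-83709003, plus strand): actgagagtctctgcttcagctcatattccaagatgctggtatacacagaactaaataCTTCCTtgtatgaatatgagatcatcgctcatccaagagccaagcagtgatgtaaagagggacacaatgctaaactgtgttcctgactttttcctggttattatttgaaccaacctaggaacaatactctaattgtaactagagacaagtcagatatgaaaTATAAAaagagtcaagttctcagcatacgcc
Slpi (chr2:164356508-164356757, minus strand): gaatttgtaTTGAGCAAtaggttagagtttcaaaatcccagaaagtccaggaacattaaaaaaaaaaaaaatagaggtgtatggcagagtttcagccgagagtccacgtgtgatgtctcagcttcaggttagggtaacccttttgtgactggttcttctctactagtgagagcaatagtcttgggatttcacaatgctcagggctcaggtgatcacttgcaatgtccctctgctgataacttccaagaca
Lcn2 (chr2:32387740-32387989, minus strand): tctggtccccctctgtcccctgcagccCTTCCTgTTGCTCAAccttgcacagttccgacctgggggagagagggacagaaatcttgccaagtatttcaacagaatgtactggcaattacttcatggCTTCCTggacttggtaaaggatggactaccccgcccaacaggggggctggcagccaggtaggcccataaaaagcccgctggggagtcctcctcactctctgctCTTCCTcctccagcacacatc

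A promoter sequence was matched for 8 of the 10 members, the exceptions being Muc15 and Lbp. Motif letters were searched on both strands in the 250 bases and set against 27025 genes with a window of that length. The C/EBP letters TTGCNNAA occurred in 10.8% of genes and in 3 members, namely Lcn2 (216 bases before the start), Ltf (75 bases before) and Slpi (241 bases before). The ETS letters AGGAAG occurred in 32.3% of genes and in 4 members, with 3 matches in the Lcn2 window, 2 in that of Wfdc2 and 1 each in those of Ltf and Wfdc18. The letters TATAAA, 14.3% of genes, were found in Wfdc18 and Muc1, 31 bases before the start, and in Muc4, 36 bases before it. No member window held the STAT letters TTCNNNGAA (8.13% of genes), the AP-1 letters TGANTCA (7.82%), the NF-kappaB motif (8.23%), the p53 family motif of 10 bases (8.20%) or the SRF CArG box (1.62%). None of the C/EBP, ETS and TATA matches overlapped. The C/EBP letters were thus present in windows of genes that were higher in luminal, higher in basal and called in neither direction. A match to letters is a description of the sequence and not a bound site.

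Ltf encodes lactoferrin, the iron-binding protein of milk and other secretions (GRCm38 chromosome 9, 111019292 to 111042766, plus strand, 18 exon blocks). Its level in luminal replicates 1 to 5 was 2555, 625, 971, 1106 and 2283 CPM, and in basal replicates 1 to 5 it was 1.25, 0.614, 3.40, 2.69 and 0.779 CPM. Luminal replicates 1 and 5 were the highest, and the lowest luminal library lay far above the highest basal one. The log2 fold change was 9.77 ± 0.61 (SE, 5 libraries per group), an 872-fold difference (adjusted p = 7.26e-09, edgeR). Mean basal Ltf stood at 0.116% of the luminal mean.

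Lcn2 encodes lipocalin 2, which sequesters iron-laden siderophores of bacteria (chromosome 2, 32384637 to 32387739, minus strand, 5 exon blocks). It measured 732, 291, 338, 436 and 615 CPM in luminal and 452, 605, 818, 816 and 405 CPM in basal replicates 1 to 5. The groups overlapped, and the luminal library was the higher of the same-numbered pair for 2 of 5 numbers. The log2 fold change of -0.36 ± 0.27 (SE) did not pass the test (adjusted p = 0.263, edgeR), and the 95% interval of limma voom ran from -0.95 to 0.17, that is from 0.518-fold to 1.13-fold, luminal over basal. Lcn2 was thereby the member of high level in both cell types, with means of 482 ± 187 CPM in the luminal group and 619 ± 195 CPM in the basal group (SD, n = 5 each). Both iron-withholding members were abundant in luminal cells, whereas in basal cells Lcn2 was retained and Ltf nearly absent.

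The WAP-domain members fell on both sides. Wfdc2, a secreted protein also known as HE4 (chromosome 2, 164562715 to 164568510, plus strand, 7 exon blocks), was at 532, 698, 717, 824 and 657 CPM in luminal and 20.4, 17.3, 13.3, 16.5 and 18.5 CPM in basal libraries. Both groups were tight, with a coefficient of variation of 15.4% in luminal and 15.2% in basal libraries. The fold change was 39.8 (log2 5.32 ± 0.19 SE, adjusted p = 5.92e-11, edgeR).

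Wfdc18, a small secreted WAP-domain protein known from mammary epithelial cells (chromosome 11, 83709004 to 83711360, plus strand, 3 exon blocks), measured 444, 368, 311, 761 and 549 CPM in luminal and 0.686, 0.273, 0.929, 0.563 and 0.480 CPM in basal libraries. Luminal replicate 4 was the highest, and no basal library reached 1 CPM. Its fold change of 828 (log2 9.69 ± 0.36 SE, adjusted p = 8.99e-11, edgeR) was close in size to that of Ltf.

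Slpi, the secretory leukocyte protease inhibitor, which blocks neutrophil elastase (chromosome 2, 164354070 to 164356507, minus strand, 6 exon blocks), ran the other way. Luminal libraries held 47.2, 45.2, 25.7, 121 and 91.7 CPM and basal libraries 2069.6, 1831, 2252, 2802 and 2278 CPM. Every basal library was above every luminal one, and luminal replicates 4 and 5 were the highest of their group. The log2 fold change was -5.09 ± 0.39 (SE), which is 34.0-fold higher in basal cells (adjusted p = 5.04e-08, edgeR). Those 2 luminal libraries held 5.37% and 4.08% of the basal mean of Slpi. They were also the highest pair for the basal keratins Krt5 (1.05% and 0.922%) and Krt14 (0.477% and 1.10%), but not for the other 5 basal markers, and replicate 4 was the lowest luminal library for Trp63 (0.248%), Oxtr (0.273%) and Cnn1 (0.0259%). The part of basal cells in the luminal Slpi level was not tested.

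Wfdc2 and Slpi lie in the same part of the genome. On chromosome 2 the highest coordinate of Slpi and the lowest of Wfdc2 are 206208 bases apart, and the count table lists 11 genes over that stretch, both included, of which 10 were tested. From Slpi towards Wfdc2, Matn4, a matrix protein gene, was at 1.87 CPM in luminal and 88.4 CPM in basal libraries (log2 fold change -5.58) and Rbpjl, a transcription factor gene, at 0.293 and 6.35 CPM (-4.35). Sdc4, which encodes a cell surface proteoglycan, was at 1415 and 2213 CPM (-0.65). Beyond it Sys1, Dbndd2 and Pigt had log2 fold changes of 0.46, 1.14 and 0.67, and Gm14317, next to Wfdc2, had a mean of 4.74 CPM in luminal libraries and 0 in basal ones. All of these passed the test, although Sdc4, Sys1, Dbndd2 and Pigt did not pass one against a 2-fold change, and among the tested genes the sign of the difference changed once along the stretch, between Sdc4 and Sys1. Trp53tg5, which starts between Sys1 and Dbndd2, was too low to test (0.588 CPM in luminal and 0.913 CPM in basal libraries). These neighbours were named after their values were seen.

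Muc1, Muc4 and Muc15 are mucins anchored in the cell membrane. Muc1 (chromosome 3, 89229056 to 89233381, plus strand, 7 exon blocks), the mucin of the milk fat globule membrane, was at 90.3, 32.7, 34.2, 46.4 and 86.9 CPM in luminal and 3.49, 5.05, 7.97, 7.94 and 6.77 CPM in basal libraries, 9.30-fold higher in luminal cells (log2 3.22 ± 0.34 SE, adjusted p = 1.35e-06, edgeR). The groups did not overlap, yet Muc1 kept 10.7% of its luminal level in basal cells, more than the other mucins among the members.

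Muc4 (chromosome 16, 32735886 to 32782391, plus strand, 27 exon blocks), a large mucin known to bind the receptor ErbB2, measured 26.6, 11.2, 6.69, 14.8 and 28.1 CPM in luminal and 1.12, 0.819, 0.310, 0.313 and 0.420 CPM in basal libraries. The difference was 28.7-fold (log2 4.84 ± 0.48 SE, adjusted p = 7.85e-07, edgeR). Its 3′ end overlaps that of the mucin gene Muc20 on the opposite strand, with 627 exon bases in common. Muc20 counts were 151% to 288% of those of Muc4 in luminal and 0% to 75% in basal libraries, and how reads in the shared bases were assigned is not given in the sources used here.

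Muc15 (chromosome 2, 110721494 to 110739537, plus strand, 5 exon blocks), a mucin likewise found in milk fat globule membranes, was at 275, 151, 101, 83.1 and 314 CPM in luminal and 2.0, 2.87, 5.49, 6.06 and 4.50 CPM in basal libraries. It was 44.2-fold higher in luminal cells (log2 5.47 ± 0.44 SE, adjusted p = 8.30e-08, edgeR), without overlap. The gene lies inside Ano3, an anoctamin gene on the opposite strand, with 61 exon bases in common. Ano3 counts followed those of Muc15 in every library, exceeding them by 7 to 63 counts in luminal and by 1 to 10 counts in basal libraries, so that reads of Muc15 and Ano3 cannot be told apart in this table.

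Pigr, the polymeric immunoglobulin receptor (chromosome 1, 130826684 to 130852249, plus strand, 13 exon blocks), was of low level in these virgin glands. It measured 22.3, 6.27, 6.75, 7.18 and 14.4 CPM in luminal libraries. In basal libraries a single count was seen, in replicate 2, and the other 4 libraries were at 0. Summed over libraries this is 906 counts against 1, a ratio of 863 at equal depth with an exact 95% interval from 154 to 34107 that covers counting error only. The edgeR fit gave a log2 fold change of 9.07 ± 0.71 (SE, adjusted p = 6.45e-08), which also rests on that single basal count. The basal level was thus at the limit of detection.

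Lbp, the lipopolysaccharide binding protein (chromosome 2, 158306493 to 158332852, plus strand, 15 exon blocks), had the lowest mean per length of the members in luminal libraries, with a range that overlapped that of Muc4. Luminal replicates 1 to 5 held 6.32, 5.21, 4.42, 8.09 and 6.03 CPM and basal replicates 0.499, 1.36, 1.39, 1.81 and 0.480 CPM. The groups did not overlap, and the difference was 5.41-fold (log2 2.44 ± 0.40 SE, adjusted p = 8.98e-05, edgeR). The basal values rest on 8 to 29 counts per library.

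Levels of different genes were compared per kilobase of exon (CPM per kb), which does not correct for reads lost at splice junctions. The aligner Bowtie2 does not align such reads, and Ltf has 18 exon blocks where Wfdc18 has 3, so the order between genes is approximate. In luminal cells the order was Wfdc2 (601 ± 92.7), Ltf (437 ± 248), Wfdc18 (399 ± 145), Lcn2 (184 ± 71.3), Slpi (56.0 ± 33.0), Muc15 (51.8 ± 29.2), Muc1 (24.8 ± 12.1), Pigr (2.83 ± 1.73), Muc4 (1.49 ± 0.807) and Lbp (1.24 ± 0.285), each as CPM per kb with SD and n = 5. Neighbours in that order overlapped in their range, except that Lcn2 lay above Slpi and Muc1 above Pigr in every library. In basal cells Slpi led with 1904 ± 303 CPM per kb (SD, n = 5), followed without overlap by Lcn2 (236 ± 74.3) and then Wfdc2 (15.1 ± 2.3). No other member exceeded 3.40 CPM per kb in any basal library. In luminal cells the secreted proteins Wfdc2, Ltf, Wfdc18 and Lcn2 thus had the 4 highest means, while Slpi and the membrane mucin Muc15 overlapped. In total the members took 0.241% to 0.499% of all counts in luminal and 0.227% to 0.344% in basal libraries.

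The level left in the lower cell type also differed between members. Basal libraries held on average 0.116% of the luminal level of Ltf, 0.12% of Pigr and 0.12% of Wfdc18. Among the luminal markers, Prlr was left at 0.0835%, Elf5 at 0.179% and Krt8 at 21.7%. Further members ranged from 2.26% (Muc15) and 2.51% (Wfdc2) over 3.41% (Muc4) and 10.7% (Muc1) to 18.5% (Lbp). Slpi was left at 2.94% in luminal libraries, where the 7 basal markers were left at 0.143% (Myh11) to 0.572% (Krt5). Lcn2 in luminal libraries was at 77.9% of its basal mean. In every luminal library the share of Slpi lay above that of all 7 basal markers, most narrowly in replicate 3, where it was 1.14% against at most 0.493%.

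**Figure D2:**
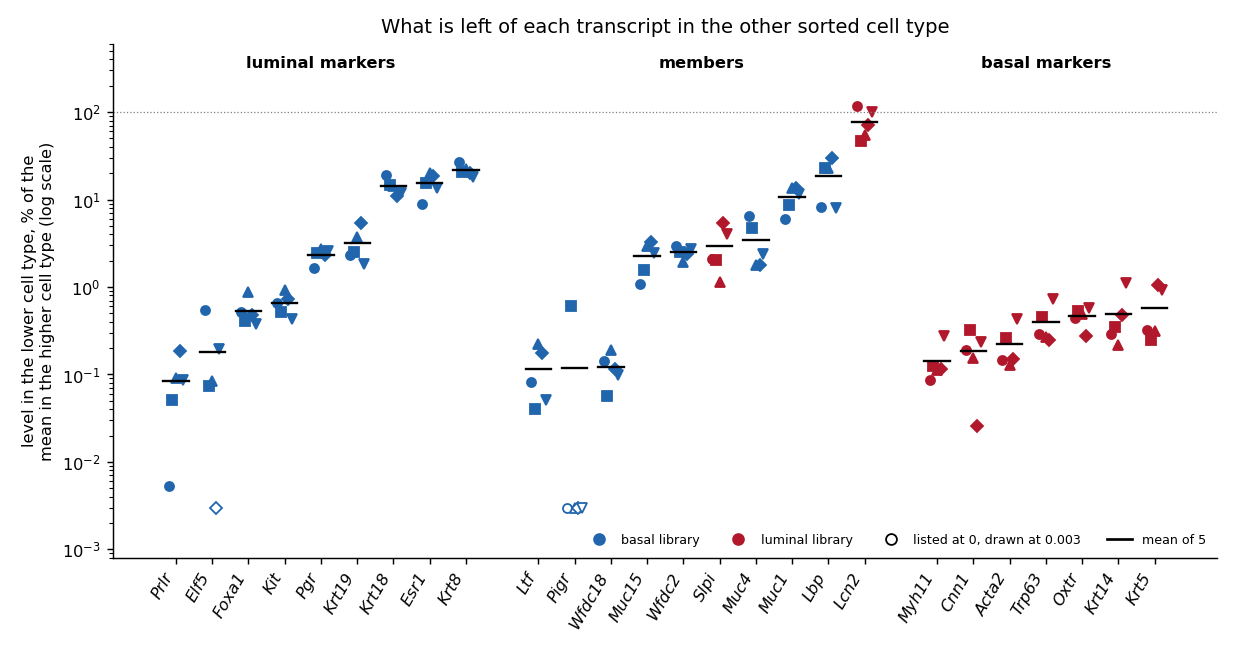
Level of each gene in the libraries of its lower cell type, as a percentage of its mean in the higher cell type, on a log axis. Blue symbols are basal and red symbols luminal libraries, the black line is the mean of 5, and open symbols stand for libraries at 0. Ltf, Pigr and Wfdc18 lie near 0.1%, between the luminal markers Prlr (0.0835%) and Elf5 (0.179%). The other luminal markers lie higher, up to 21.7% for Krt8. Slpi lies above all 7 basal markers on average, and Lcn2 lies between 47.0% and 118%.

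The spread within a group differed between members. The highest luminal library exceeded the lowest by 4.69-fold for Slpi, 4.2-fold for Muc4, 4.09-fold for Ltf, 3.78-fold for Muc15 and 3.55-fold for Pigr, but by 1.55-fold for Wfdc2 and 1.83-fold for Lbp. In basal libraries the same ratio was 1.53 for Slpi and for Wfdc2, 3.04 for Muc15, 3.63 for Muc4, 3.78 for Lbp and 5.54 for Ltf. For Pigr, Lcn2, Ltf, Muc1, Muc4 and Muc15, which are 6 of the 10 members, luminal replicates 1 and 5 were the 2 highest libraries. Among 13585 tested genes with a mean of at least 1 CPM in luminal libraries, that pair was the highest for 19.8%. Wfdc2, Wfdc18, Slpi and Lbp did not share this order. In basal libraries, replicates 3 and 4 were the 2 highest for Lcn2, Ltf, Muc1, Muc15 and Lbp, the pair that led for 16.8% of 13550 genes with that mean in basal libraries. Among the luminal markers, Krt19, Kit, Prlr and Esr1 had the same highest pair in basal libraries, while Krt8, Krt18, Elf5, Pgr and Foxa1 did not. These library pairs were noticed after the values were seen and were not tested.

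**Figure D3:**
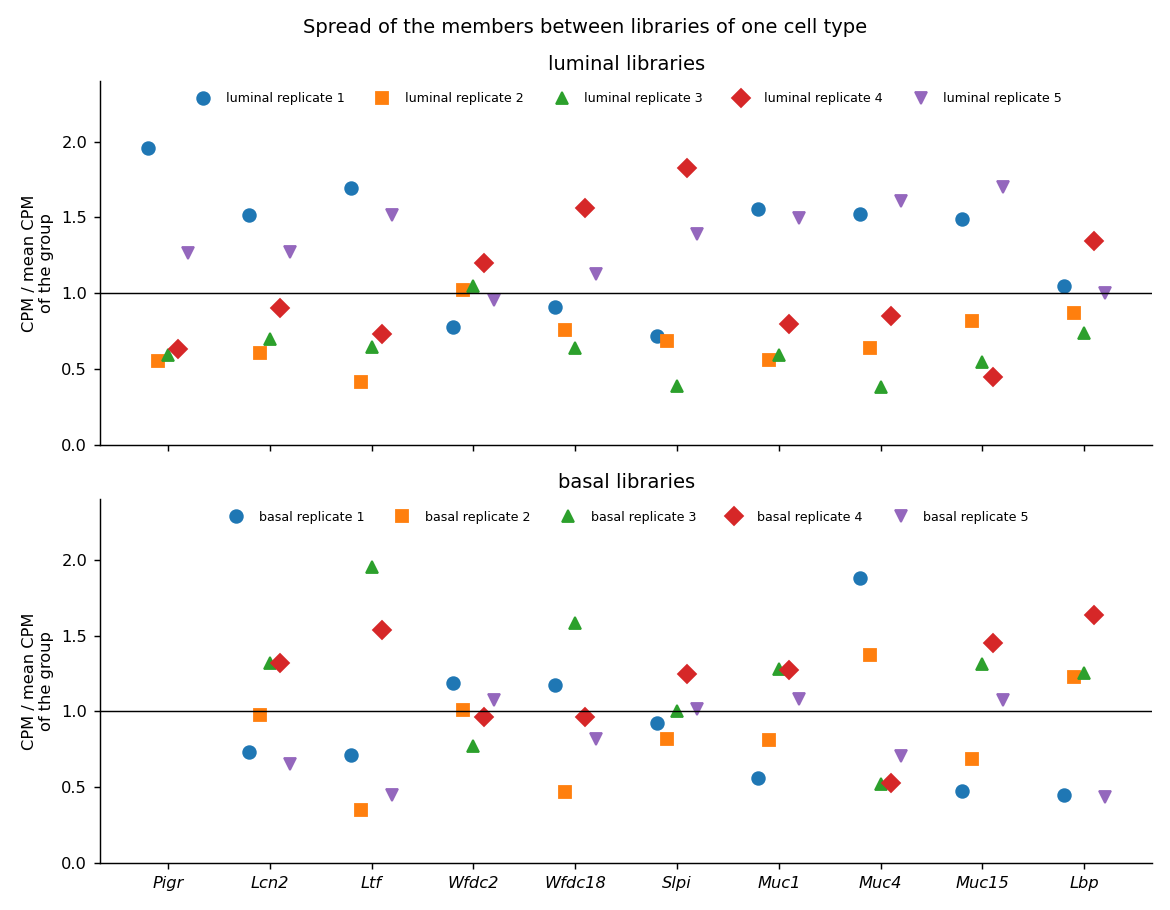
Each library's CPM divided by the mean CPM of its group, for the luminal libraries above and the basal libraries below, with symbols for the replicate number. Luminal replicates 1 and 5 are the highest for Pigr, Lcn2, Ltf, Muc1, Muc4 and Muc15 but not for Wfdc2, Wfdc18, Slpi or Lbp. Basal Pigr, with 1 count in all, is left out.

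The 4 luminal progenitor markers Elf5, Kit, Cd14 and Aldh1a3 were highest in the same luminal replicates 1 and 5. Their summed level was 2897 and 1977 CPM there and 851 to 909 CPM in the other 3 luminal libraries. The 5 hormone-sensing markers were also highest in those libraries in sum, at 2436 and 2639 CPM against 1505 to 2057 CPM in the others. Of these, Pgr had those libraries as its highest pair (611 and 426 CPM, against 86.0 to 253 CPM), while Esr1, Prlr, Foxa1 and Prom1 did not. The milk protein gene Csn3 measured 1197 and 883 CPM in replicates 1 and 5 and 413 to 538 CPM in the others. The other 4 milk protein genes were too low to test, and Lalba, at 0.105 to 2.21 CPM in luminal libraries, was highest in replicates 3 and 4. Wap, the whey acidic protein gene, had no count in any library, which leaves its level under 0.232 CPM. The part of the luminal cell mix in the spread of the members was not tested.

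Cells that could bring such transcripts from outside the epithelium were followed through their markers. Neutrophils store Ltf and Lcn2, and of 10 neutrophil markers none was tested. The summed level of these markers ranged from 0.127 to 1.15 CPM in luminal and from 0.136 to 1.16 CPM in basal libraries. Of the 10, only Elane and Retnlg were at 0 throughout. B and plasma cells make the IgA that Pigr carries, and Jchain, its joining chain, had 4 counts in luminal replicate 5 and none elsewhere. Summed over 4 B and plasma cell markers the level was 20.2 to 37.6 CPM in luminal and 1.93 to 3.69 CPM in basal libraries, nearly all of it Mzb1, a chaperone of the secretory pathway (19.5 to 37.5 CPM in luminal libraries). The 3 T cell markers were at 0. Macrophage markers, 6 in all, summed to 17.4 to 27.2 CPM in luminal and 37.5 to 53.6 CPM in basal libraries, with 2 higher in luminal and 2 in basal cells of 4 tested. The 4 fibroblast markers summed to 21.0 to 106 CPM in luminal libraries, where replicate 1 was the highest, and to 33.4 to 46.4 CPM in basal ones. Of these 4, Dcn was higher in luminal cells (38.3 against 12.0 CPM), Pdgfrb (14.3-fold) and Pdgfra (2.13-fold) were higher in basal cells and Col3a1 was not called. The 3 endothelial markers summed to 1.58 to 4.06 CPM in luminal and 5.73 to 12.4 CPM in basal libraries, and of 2 tested Cdh5 was 20.6-fold higher in basal cells. The part of these cells in the results was not tested.

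Genes that act with the members were taken from 7 lists written from general knowledge of the pathway. Along the immunoglobulin route, 5 of 10 genes were tested, of which 2 were higher in luminal cells, 2 higher in basal cells and 1 in neither. With DESeq2 in place of edgeR, 3 genes of this list were called instead of 4. Tnfsf13 (APRIL), a survival factor of plasma cells, was 7.61-fold higher in luminal cells (15 against 1.96 CPM, adjusted p = 1.27e-06, edgeR). Vcam1, an adhesion molecule for lymphocytes, was 93.0-fold higher in basal cells (141 against 1.55 CPM, adjusted p = 8.05e-10). The chemokine gene Ccl25 was 2.26-fold higher in luminal cells (adjusted p = 0.0265), a call lost without luminal replicate 3 (adjusted p = 0.0762) and without basal replicate 5 (adjusted p = 0.0621). Il6, a cytokine gene at 2.95 CPM in basal and 0.426 CPM in luminal libraries, had an adjusted p of 0.0163, and its fold of 6.80 moved to a log2 fold change of -3.71 without luminal replicate 5. Ccl28 and Ccl20, chemokines that draw IgA-producing and other lymphocytes to mucosae, were too low to test.

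Among 20 antimicrobial and acute phase genes, 13 were tested, with 9 higher in luminal cells, 3 higher in basal cells and 1 in neither. Their median log2 fold change was 1.69, against 0.05 over all genes tested. Of all genes tested, 33.6% were called towards luminal and 31.2% towards basal cells. The medians of the other lists ran from -0.17 (immunoglobulin route) and -0.13 (regulators) up to 6.12 (mucin and mucus). The lists were chosen with earlier results known, so these values only describe them. Hp, encoding haptoglobin, which binds free haemoglobin, was at 2208, 165, 707, 1159 and 1643 CPM in luminal and 0.273 to 2.09 CPM in basal libraries, a 1524-fold difference (adjusted p = 4.16e-08, edgeR). Without basal replicate 3, the highest basal library, its log2 fold change rose from 10.57 to 11.26. Reg3g, an antibacterial lectin, was at 5.33 to 16.7 CPM in luminal libraries and at 0 in every basal library, which is at least 53.9-fold higher against 3 counts per basal library. Defb1, a beta-defensin, was 188-fold higher in luminal cells (adjusted p = 1.84e-08), and its log2 fold change moved from 7.55 to 8.22 without basal replicate 4.

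On the basal side of that list, Chil1, a chitinase-like secreted protein, was 44.7-fold higher in basal cells (2152 against 48.2 CPM, adjusted p = 1.34e-09, edgeR). Complement C3 was 2.49-fold higher there (491 against 197 CPM, adjusted p = 8.17e-04). Slpi was therefore not the only defence gene with an abundant basal transcript, since Chil1 reached 1148 to 3037 CPM in single basal libraries.

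The wider WAP-domain family had 18 further members in the table, of which 5 were tested, with 3 higher in luminal cells, 1 higher in basal cells and 1 in neither. Together with Wfdc2, Wfdc18 and Slpi, 14 of these 21 genes lie on chromosome 2 and 5 on chromosome 11. Wfdc12, whose lowest coordinate lies 164839 bases below that of Slpi, was 61.1-fold higher in luminal cells (15 against 0.246 CPM, adjusted p = 1.02e-06, edgeR), and its log2 fold change of 5.93 became 6.55 without basal replicate 4. Wfdc3, on the far side of Wfdc2, was 3.86-fold higher (adjusted p = 1.33e-05). Wfdc17, the neighbour of Wfdc18 and similar to it in name and position, was at 3.04 CPM in luminal and 0.167 CPM in basal libraries, and its log2 fold change of 4.10 became 5.05 without basal replicate 1. Reads shared between such related genes could have been split in a way that the sources used here do not give. Wfikkn2, a secreted inhibitor of growth factors, was the one higher in basal cells (1.82 against 0.436 CPM, adjusted p = 0.00706). On chromosome 2, Slpi was the single WAP-domain gene called higher in basal cells among the 4 tested there.

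Of 17 mucin and mucus genes, 15 were in the table and 4 were tested. Muc20, a membrane mucin, was 128-fold higher in luminal cells (adjusted p = 1.08e-08, edgeR; log2 fold change 7.0, and 7.66 without basal replicate 2). Muc13, another membrane mucin, was at 275, 196, 253, 137 and 77.7 CPM in luminal and 2.06 to 4.49 CPM in basal libraries, 62.6-fold higher in luminal cells (adjusted p = 7.01e-09), and there replicate 5 was the lowest luminal library. Fcgbp, a protein of the mucus gel, was at 2156, 1339, 892, 587 and 2813 CPM in luminal libraries, with replicates 5 and 1 the highest. In basal libraries it was at 1.68 to 6.17 CPM except for replicate 4, at 87.6 CPM. Its log2 fold change of 6.27 ± 1.12 (SE, adjusted p = 2.07e-04, edgeR) became 8.92 without that library. Muc2, a gel-forming mucin, was the gene of this list higher in basal cells (3.46 against 0.515 CPM, adjusted p = 0.00565). The trefoil factor genes Tff1, Tff2 and Tff3 had no count.

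Of 17 bacterial recognition genes, some of which act with Lbp, 15 were tested. Of those tested, 7 were higher in luminal cells, 3 higher in basal cells and 5 in neither. Cd14, the receptor that takes lipopolysaccharide from Lbp, was at 2061, 461, 482, 488 and 1184 CPM in luminal and 1.63 to 4.18 CPM in basal libraries, 364-fold higher in luminal cells (adjusted p = 1.21e-08, edgeR). Tlr4, the signalling receptor of that complex, was 3.50-fold higher (48.1 against 13.7 CPM, adjusted p = 1.30e-06), and its cofactor Ly96 2.83-fold higher (3.32 against 1.17 CPM, adjusted p = 0.00169). Tlr5, the flagellin receptor, was 4.96-fold higher (adjusted p = 1.05e-04). In the other direction Tlr2, the receptor for bacterial lipopeptides, was 2.55-fold higher in basal cells (36.9 against 14.5 CPM, adjusted p = 3.75e-05), as was the related Cd180 (2.04-fold, adjusted p = 3.05e-04). Lbp, Cd14, Tlr4 and Ly96, the chain that senses lipopolysaccharide, were thus each higher in luminal cells, of which Ly96 did not pass a test against a 2-fold change (adjusted p = 0.0875). The adaptors and kinases downstream of these receptors were mixed. Tirap, a bridging adaptor of Tlr4 and Tlr2, was 3.39-fold higher in luminal cells (adjusted p = 2.93e-06, edgeR) and Ticam1, the TRIF adaptor, 1.53-fold higher (adjusted p = 0.00629). The kinase gene Irak1 was 1.29-fold higher in basal cells (adjusted p = 0.0314), a call lost without luminal replicate 4 (adjusted p = 0.0608) or 5 (0.0532) and without basal replicate 2 (0.0604) or 3 (0.0606). Myd88, the main Toll-like receptor adaptor, was not called (log2 fold change -0.51, adjusted p = 0.0803) but was called without luminal replicate 1 (-0.70, adjusted p = 0.013) or basal replicate 1 (-0.61, adjusted p = 0.0476). Irak4, Traf6 and Tollip had log2 fold changes of 0.07, 0.07 and 0.08 and were not called.

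Genes that induce or regulate the members went both ways, with 7 higher in luminal cells, 7 higher in basal cells and 2 in neither of 16 tested. All genes tested were also called in near-equal shares, 33.6% and 31.2%, so the even numbers do not set this list apart. The calls in this list depend on the scaling, since 11 instead of 14 genes were called with upper-quartile factors, and likewise with library totals alone. Epithelial ETS factors led the luminal side, with Ehf 91.3-fold higher (259 against 2.80 CPM, adjusted p = 5.10e-07, edgeR), Spdef 30.3-fold higher (adjusted p = 1.95e-08) and Elf3 8.16-fold higher (adjusted p = 8.80e-09). The log2 fold change of Ehf moved from 6.51 to 7.67 without basal replicate 4. Cebpb, a C/EBP factor of the acute phase response, was 2.99-fold higher in basal cells (917 against 306 CPM, adjusted p = 3.14e-06), while Cebpd was 2.14-fold higher in luminal cells (adjusted p = 2.47e-05). The NF-kappaB subunit genes Rela and Nfkb1 were 1.82-fold and 1.72-fold higher in basal cells, and Nfkbiz, the cofactor known to induce Lcn2, was not called (log2 fold change 0.11 ± 0.30 SE, adjusted p = 0.765). Il6st, the shared receptor chain of the interleukin 6 family, was 2.18-fold higher in basal cells (adjusted p = 1.39e-04).

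Binding partners of the members were tested for 8 of 11 genes, with 5 higher in luminal cells, 2 higher in basal cells and 1 in neither. Lgals3, a galectin that binds mucin sugars, was 15.7-fold higher in luminal cells (549 against 34.9 CPM, adjusted p = 1.80e-07, edgeR). Erbb2, the partner of Muc4, was 3.49-fold higher (158 against 45.3 CPM, adjusted p = 2.13e-07) and Erbb3 43.5-fold higher (536 against 12.3 CPM, adjusted p = 3.72e-10). Egfr was 6.47-fold higher in basal cells (183 against 28.3 CPM, adjusted p = 2.38e-08). Lrp1, an endocytic receptor that takes up lactoferrin, was 77.3-fold higher in basal cells (1857 against 24.0 CPM, adjusted p = 2.19e-10), opposite to Ltf itself. Slc22a17, the lipocalin 2 receptor, was not called (26.0 against 20.9 CPM, adjusted p = 0.243), as Lcn2 was not.

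**Figure D4:**
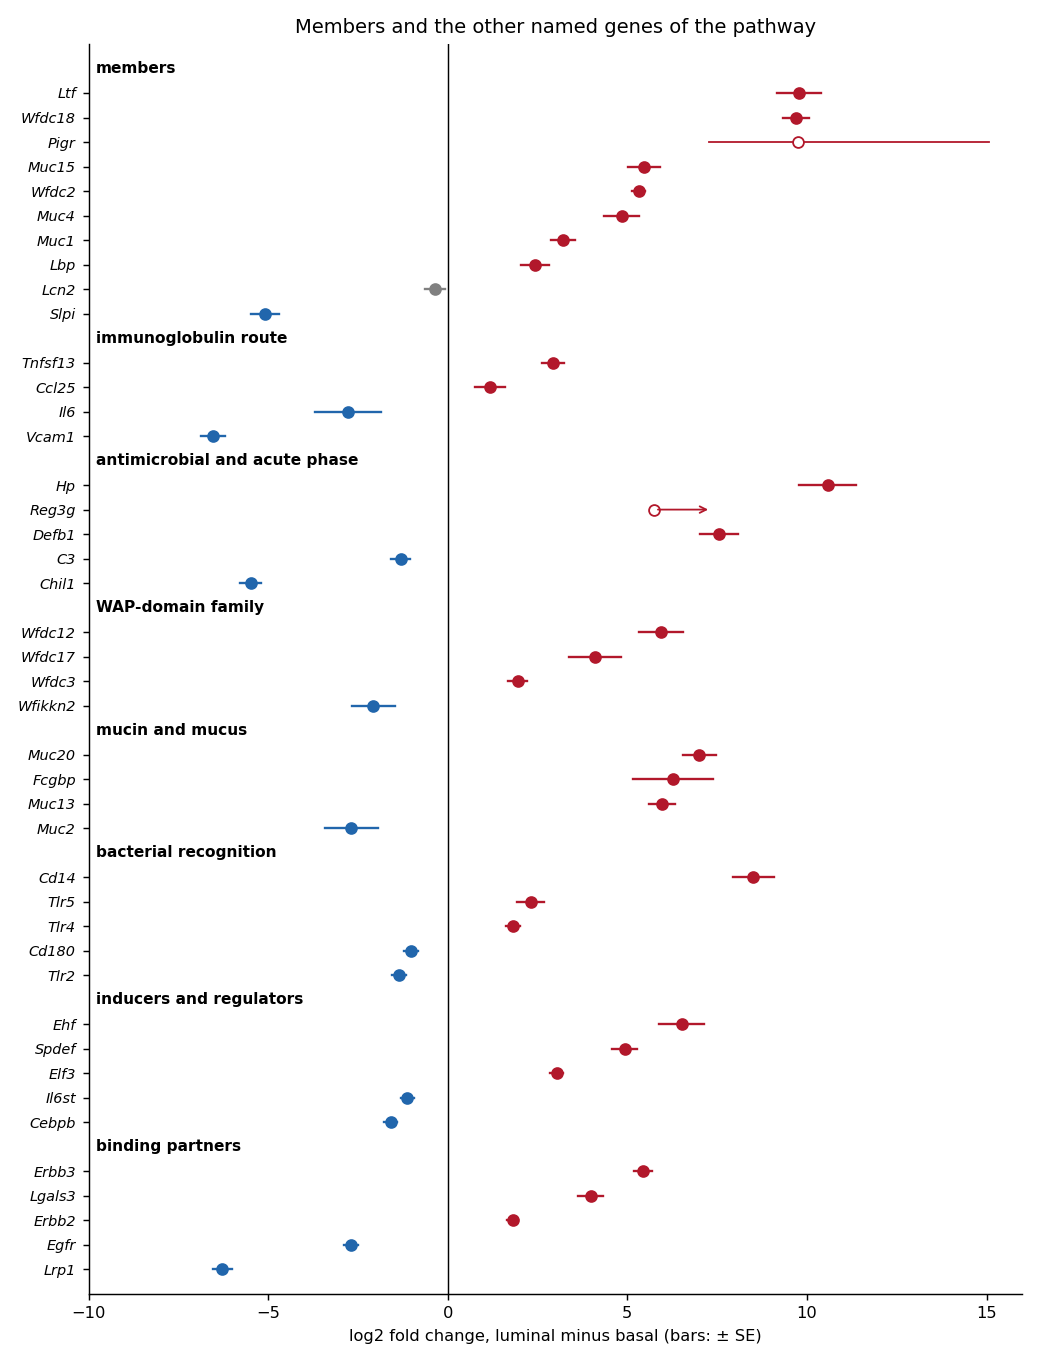
Log2 fold change, luminal minus basal, of the members and of the other genes named by rule from the 7 lists, with bars of 1 SE. Red marks genes called higher in luminal, blue higher in basal cells and grey no call. The open symbol of Pigr is its count ratio with the 95% interval, and that of Reg3g is a lower bound. Each list holds genes on both sides of 0, and Slpi and Lcn2 are the members at or below 0.

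For each member the gene with the most similar profile over the 10 libraries was sought, by the root-mean-square distance of log2 CPM after centring each gene on its own mean. Pigr was nearest to Folr1, a folate receptor gene (distance 0.38), and Ltf to Gpx3, a secreted glutathione peroxidase (0.56), with Hp second (0.61). Lbp was nearest to Sel1l3 (0.30). Muc1 was nearest to the tetraspanin gene Cd82 (0.28) and Muc4 to the potassium channel gene Kcnk5 (0.44). Lcn2 was nearest to Dolk, dolichol kinase (0.24), at 4.74 to 12.3 CPM. For Muc15 and Slpi the nearest genes were overlapping ones, Ano3 (0.11) and the microRNA gene Mir7678 (0.21), which lies within Slpi and held 5.01% to 9.31% of the Slpi count in each library, and the second nearest were Gm266 (0.45) and Gas7 (0.34). The same rule gave Lrrc26, which encodes an auxiliary subunit of potassium channels, for Wfdc2 (0.19) and Ido1, the tryptophan-degrading enzyme, for Wfdc18 (0.47). Lrrc26 had no basal count and Ido1 had 1, as Pigr did, so their basal log2 CPM rests on the small count that is added before taking logs, and the distances of Pigr, Wfdc2 and Wfdc18 do not show that the profiles are alike.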

How the data were processed

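Raw counts were deposited by the authors as whole numbers, 1 column per library and not normalized, under Entrez identifiers. The study's methods describe poly(A)-selected single-end libraries, trimming with cutadapt and alignment to mm10 with Bowtie2. The submitters' processing notes give cutadapt 4.2 and Bowtie2 2.3.5.1. Reads that cross a splice junction are not aligned by Bowtie2. The counting tool and its handling of strand, overlapping genes and similar copies are not given in the sources used here. RefSeq GRCm38.p6 gave a symbol for 24570 of 24594 genes, and exon lengths are from GENCODE M21.

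Genes were filtered with filterByExpr (minimum count 10, minimum total 15), scaled by TMM and tested with edgeR 4.0.16 (quasi-likelihood, R 4.3.3), cell type being the only term. A call is a Benjamini-Hochberg adjusted p under 0.05. SE is the log2 fold change over the square root of F. The tests were tested on simulated data. Replicates of a group differed beyond sampling noise, with a lowest chi-square per degree of freedom of 15.2. From each list, up to 3 genes with the largest positive and up to 2 with the largest negative fold change were named, among called genes averaging 1 CPM or more in the higher group, with other genes named as examples of their list after their values were seen. The members and lists were chosen with earlier results of these data known. Alternatives were other scalings, filters and tools (DESeq2 1.42.0, limma 3.58.1), the replicate number as a block, each library left out, and a test against a 2-fold change. A marker gene of the lists is not reported here and entered no sum.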

Additional observations from a re-analysis of the deposited data

Results flagged for a closer look

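In 105 groups of 5 values (members, other named genes, library totals and scaling factors), 12 held a library far from the other 4. For normal and independent values about 5.25 would be expected. CPM values need not be normal and the groups share their libraries, so that number is a rough guide only. None was a member. Basal replicate 4 stood apart for 3 genes of the lists, Fcgbp at 87.6 CPM (others 1.68 to 6.17), Ehf at 9.0 CPM (others 0.409 to 1.75) and Lgals3 at 73.1 CPM (others 20.4 to 28.7). In basal replicate 1, Tlr4 was highest at 15.2 CPM (others 13.2 to 13.5), Wfdc17 highest at 0.499 CPM (others at most 0.136), Erbb2 lowest at 33.3 CPM (others 46.0 to 49.8) and the TMM factor lowest at 0.892 (others 0.943 to 0.960). Hp was highest in basal replicate 3, at 2.09 CPM against at most 0.688 in the others. Among luminal libraries, Gpx3 was highest in replicate 1, at 6819 CPM (others 1844 to 2591), Vcam1 in replicate 4, at 3.36 CPM (others 0.675 to 1.33), and Wfdc12 in replicate 2, at 28.4 CPM (others 10.8 to 13.3), where Chil1 was lowest at 37.2 CPM (others 48.7 to 52.0).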

How the results depend on the processing

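Under all alternatives that could be fitted, no log2 fold change of a member or of a gene named by the rule changed sign, and all 185 refitted values of members kept their side of the threshold. The calls of 8 members higher in luminal and 1 in basal cells were also found by each alternative except the stricter filter (10 counts or more in each library), which dropped low basal counts and left 3 higher in luminal cells. That filter left 2 called genes of the immunoglobulin route, 6 antimicrobial, 1 WAP-domain and 2 mucin genes. Without any filter 7 WAP-domain genes were called. A test against a 2-fold change called 1913 genes towards luminal and 1995 towards basal cells, 2 genes of the immunoglobulin route, 6 antimicrobial, 4 bacterial recognition and 6 regulator genes. Among the called genes refitted one by one (members, genes named by the rule and examples, not cell type markers), Ccl25, Il6, C3, Wfikkn2, Tlr2, Cd180, Il6st, Sdc4, Sys1, Dbndd2, Pigt, Ly96, Ticam1, Irak1, Cebpd, Rela and Nfkb1 did not pass that test. The log2 fold change of Lcn2 ranged from -0.54 (without luminal replicate 1, adjusted p = 0.0831, edgeR) to -0.18 (library totals alone). That of Pigr, with 1 basal count, ranged from 7.92 (limma voom) to 10.48 (without basal replicate 2). Among genes given as examples, uncalled log2 fold changes near 0 turned for Irak4 (without luminal replicate 1 or 5), Tollip (without luminal replicate 1) and Nfkbiz (without luminal replicate 4 or basal replicate 3). With each library left out they ranged from -0.038 to 0.19 for Irak4, from -0.028 to 0.22 for Tollip and from -0.070 to 0.31 for Nfkbiz. The basal call of Irak1 was also lost with upper-quartile factors (-0.25, adjusted p = 0.124) and library totals (-0.17, adjusted p = 0.348), and Myd88 was called by limma voom (-0.57, adjusted p = 0.0444). Upper-quartile factors shifted the median of all genes by 0.12 and library totals by 0.19.

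Same-numbered libraries share the leading number of their description, whose meaning is not stated. Their deviations from the group means correlated at -0.10 to 0.17, and 3 of 10 libraries correlated best with their own number. A replicate block gave 4740 genes towards luminal and 4539 towards basal cells, with the same counts of 8 and 1 members. Counts of 3 or fewer limit what is known of basal Pigr.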
